A study of Mus musculus with 12 samples.

Results

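The 34 genes described here mark the endothelium, the cell layer that lines blood vessels, and they include 4 genes of lung capillaries. They were taken as a list of endothelial surface, junction, signalling and transcription factor genes, and every probe set annotated to them was read on all 12 arrays. The platform annotation gave a probe set for 33 of the 34. Tspan7, a tetraspanin, was the exception and is not analysed here. All 33 passed the filter on low values, and each was represented by its brightest probe set. Of the genes, 14 were grouped as junction and surface glycoproteins, 11 (Tspan7 among them) as receptors and signalling proteins, 5 as transcription factors and 4 as capillary genes.

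RNA came from lungs of mice aged 8 to 12 weeks and was hybridised to Affymetrix mouse arrays, 1 array per mouse. There were 4 groups of 3 mice: GADD45-/- mice after VILI, GADD45-/- mice labelled SB, wild type mice after VILI and wild type mice labelled SB. VILI, injury of the lung by the ventilator, came from 4 hours of ventilation with tidal volumes of 30 ml/kg and 65 breaths each minute. SB is left unexplained by the labels, and its wild type group is the control of the series design. The series title names Gadd45a as the deleted gene, the labels of the VILI knockouts shorten the genotype to GADD-/-, and the sources used here do not say how the deletion was made, nor the strain or sex. Values are log2 expression levels made by the authors, and a difference of 1 is a doubling on that scale. In the comparisons, knockout stands for GADD45-/- and changes are VILI minus SB unless said otherwise.

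Endothelial cells meet the blood on one side and hold to each other on the other through adherens and tight junctions, built among others from VE-cadherin (Cdh5), claudin 5 (Cldn5) and PECAM-1 (Pecam1). ETS-family transcription factors such as Erg and Fli1 maintain the identity of these cells, while the Krüppel-like factors Klf2 and Klf4 respond to the flow of blood and hold down inflammatory and clotting genes. In the lung, capillary endothelium surrounds the alveoli and forms, with the thin epithelium, the barrier across which gas passes, and its junctions are a known site of leak in lung injury.

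Defining markers of endothelium were present on every array: Cdh5 read 11.06 or more, Pecam1 11.89 or more and Cldn5 12.67 or more, while the medians of whole arrays ran between 4.36 and 4.58. The lowest value of a probe set used for a member was 5.92, for Hspa12b, and dimmer kept probe sets that were not used reached down to 4.28 for Ets1. The junction and surface members as a list averaged 11.4 to 12.1 on every array. Gadd45a itself read 5.87, 6.02 and 5.36 on the knockout VILI arrays and 4.87, 6.15 and 4.58 on the knockout SB arrays. The wild type VILI arrays gave 9.75, 9.77 and 10.3, and the wild type SB arrays 8.62, 9.51 and 8.69, so the targeted gene separated the genotypes as labelled.

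Promoter sequence from RefSeq (GRCm38.p6) was at hand for 16 of the 34 members, Tspan7 included. Of these, 7 are shown: the 5 members with a single entry that fell after VILI, and 2 members, Bmx and Robo4, with a single entry and a change bounded within 0.5 in either direction. Each is the 250 bases upstream of the annotated start, 5′ to 3′ along the gene's own strand. Capitals mark 3 motifs searched on both strands, whose matches do not overlap those of another motif in these windows: AGGAAG, a core bound by ETS factors, CACCC, a core bound by Krüppel-like factors, and the MEF2 consensus. The spellings were chosen after matches had been seen.
Klf2 (chr8:72318812-72319061, plus strand): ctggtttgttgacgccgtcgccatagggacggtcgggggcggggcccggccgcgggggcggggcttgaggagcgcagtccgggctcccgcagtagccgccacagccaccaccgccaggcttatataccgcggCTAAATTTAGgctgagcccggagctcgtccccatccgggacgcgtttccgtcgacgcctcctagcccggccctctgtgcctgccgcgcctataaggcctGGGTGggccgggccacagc
Hspa12b (chr2:131127162-131127411, plus strand): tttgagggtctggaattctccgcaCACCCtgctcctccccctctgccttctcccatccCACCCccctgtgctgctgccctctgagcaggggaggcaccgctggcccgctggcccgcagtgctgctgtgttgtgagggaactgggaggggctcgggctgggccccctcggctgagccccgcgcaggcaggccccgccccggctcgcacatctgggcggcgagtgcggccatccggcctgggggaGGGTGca
Ephb4 (chr5:137349859-137350108, plus strand): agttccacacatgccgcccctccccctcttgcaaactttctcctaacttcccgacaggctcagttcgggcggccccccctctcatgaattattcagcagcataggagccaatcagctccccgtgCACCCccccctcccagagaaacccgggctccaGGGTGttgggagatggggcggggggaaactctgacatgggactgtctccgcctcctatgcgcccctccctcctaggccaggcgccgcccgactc
Clec14a (chr12:58269259-58269508, minus strand): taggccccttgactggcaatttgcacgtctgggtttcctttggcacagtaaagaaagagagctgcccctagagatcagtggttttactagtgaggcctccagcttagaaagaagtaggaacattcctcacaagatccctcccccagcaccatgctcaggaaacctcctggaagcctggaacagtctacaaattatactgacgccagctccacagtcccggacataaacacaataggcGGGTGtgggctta
Eng (chr2:32646345-32646594, plus strand): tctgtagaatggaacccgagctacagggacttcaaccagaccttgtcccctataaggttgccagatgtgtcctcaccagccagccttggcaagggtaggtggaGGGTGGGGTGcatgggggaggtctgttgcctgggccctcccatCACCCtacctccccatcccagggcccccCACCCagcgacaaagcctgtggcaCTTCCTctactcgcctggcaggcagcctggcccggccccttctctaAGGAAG
Bmx (chrX:164258194-164258443, minus strand): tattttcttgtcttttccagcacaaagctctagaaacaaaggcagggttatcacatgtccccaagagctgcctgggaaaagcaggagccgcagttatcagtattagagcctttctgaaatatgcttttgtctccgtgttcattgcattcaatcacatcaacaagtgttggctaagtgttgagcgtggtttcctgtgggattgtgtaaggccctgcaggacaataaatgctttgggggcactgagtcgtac
Robo4 (chr9:37401722-37401971, plus strand): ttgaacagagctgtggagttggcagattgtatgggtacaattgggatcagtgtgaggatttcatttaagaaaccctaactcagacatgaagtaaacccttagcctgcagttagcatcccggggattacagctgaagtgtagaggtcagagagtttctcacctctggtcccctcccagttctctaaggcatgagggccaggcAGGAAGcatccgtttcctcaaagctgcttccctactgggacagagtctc

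CACCC stood in the 5 windows shown of members that fell and not in those shown of Bmx and Robo4, but members with several entries were mixed. It was in 1 of the 3 windows of Egfl7, which also fell, and in 2 of the 3 of Erg, which was bounded within 0.5. The motif is common: 52.0% of the 32851 promoter entries of that length held it, and 10 of the 16 members with an entry. AGGAAG stood in the windows of Eng and Robo4, in 7 of the 16 members and in 29.5% of all entries. The MEF2 element was found in 1 member, Klf2, at bases 118 to 109 before the start, and in 0.508% of all entries. These are matches of letters and say nothing of what binds there.

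After VILI, averaged over the genotypes, 10 of the 33 measured members fell and 1 rose. The falls were led by the transcription factor Klf2 (2.79-fold lower), the endothelial heat shock family member Hspa12b (2.71-fold) and the ephrin receptor Ephb4 (2.64-fold). Clec14a, Eng, Tmem100, Podxl, Icam2, Egfl7 and Pecam1 fell by less, and Lyve1, a hyaluronan receptor of lymphatic endothelium and some macrophages, rose 1.29-fold. The 95% interval of the change lay wholly within 0.5 of zero for 8 members not called, Erg, Esam, Robo4, Ets1, Bmx, Ptprb, Vwf and Plvap, although those of Vwf and Plvap lay below zero throughout. A further 14 members were neither called nor bounded in this way.

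Calls are limma tests with Benjamini-Hochberg adjustment over 10996 genes at a threshold of 0.05. Across all genes 9.39% were called lower and 8.42% higher in this comparison. Of the 22 members not called, 9 passed the threshold in some of 21 alternative settings: Cd93 in 7, Mmrn2 in 5, Plvap in 4, Car4, Ets1, Fli1 and Klf4 in 2 each, and Aplnr and Vwf in 1 each. The median change of the members was -0.27, against -0.03 over all genes tested, and 23 of 33 members had a negative change, against 53.8% of all genes. Lung tissue was measured, so fewer endothelial cells and less RNA per endothelial cell cannot be told apart.

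**Figure D1:**
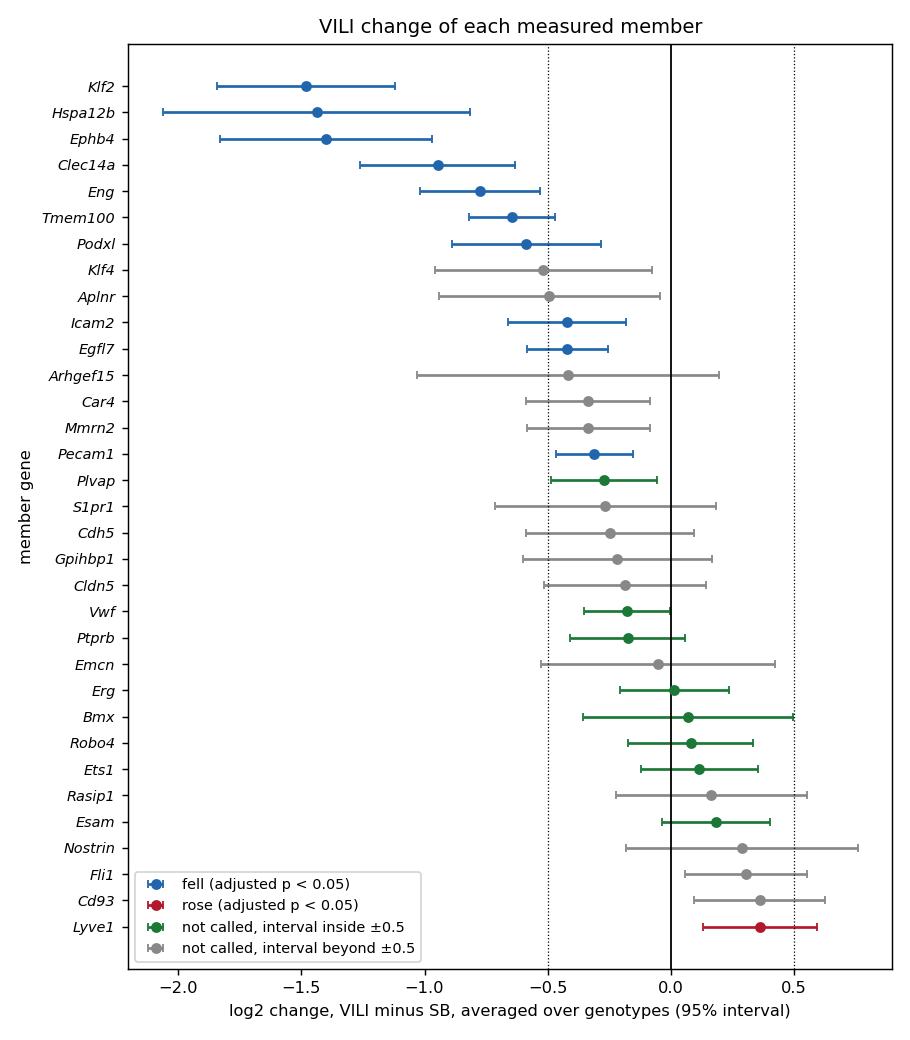
Log2 change (VILI minus SB, averaged over genotypes) of the 33 measured members with 95% intervals, by size of change. Blue points fell, the red point rose, green points were not called and have intervals inside the dotted lines at ±0.5, and grey points were not called and have wider or shifted intervals. Klf2, Hspa12b and Ephb4 stand at the left between -1.48 and -1.40, and Lyve1 lies at 0.36.

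Among the 5 transcription factors, 1 fell, none rose, 2 were bounded within 0.5 and 2 were undetermined. Klf2 read 10.61, 10.83 and 11.08 on the knockout VILI arrays, against 11.91, 12.30 and 12.73 on the knockout SB arrays. In wild type lungs it read 10.30, 10.50 and 10.77 after VILI, against 11.58, 12.27 and 12.20 under SB. Every VILI array lay below every SB array of either genotype. The averaged change of Klf2 was -1.48 (SE 0.16, adjusted p = 0.000486).

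Klf4, its relative with overlapping targets, gave 12.43, 12.57 and 12.53 in knockout VILI lungs, against 12.69, 13.44 and 13.34 in knockout SB lungs. Wild type lungs gave 12.47, 12.38 and 12.92 after VILI, against 12.28, 13.51 and 13.16 under SB. The knockout groups did not overlap, the wild type groups did, since 1 SB array (12.28) was the lowest of the 12, and the averaged change of -0.52 was not called (SE 0.20, adjusted p = 0.0941).

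Erg, the ETS factor most restricted to endothelium, stood at 10.49, 10.45 and 10.02 in knockout VILI lungs, against 10.30, 10.63 and 10.18 in knockout SB lungs. The wild type values were 10.41, 10.32 and 10.35 after VILI, against 10.22, 10.27 and 10.36 under SB. All groups overlapped, and the 95% interval of the averaged change of 0.01 was -0.21 to 0.23. Ets1, an ETS factor of endothelium and lymphocytes, changed by 0.12 (-0.12 to 0.36). Its levels were 12.26, 12.10 and 12.74 with VILI and 12.31, 12.02 and 12.50 with SB in knockouts, and 12.34, 12.34 and 12.40 with VILI and 12.16, 12.21 and 12.29 with SB in wild type. Fli1, an ETS factor shared with blood cells, had a change of 0.31 that was not called (adjusted p = 0.0809). A dimmer Fli1 probe set, with a mean level of 8.53, rose by 0.43 and was narrowly called (adjusted p = 0.0497 in a limma fit of 23083 probe sets). On the probe sets used for the transcription factors, then, Klf2 alone was called.

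The 14 junction and surface members held 4 that fell, 1 that rose, 4 bounded within 0.5 and 5 undetermined. Clec14a, a C-type lectin family glycoprotein of endothelium, read 11.42, 10.94 and 10.57 in knockout VILI lungs, against 11.75, 11.85 and 12.03 in knockout SB lungs. The wild type lungs read 11.25, 11.27 and 10.75 after VILI, against 12.18, 12.18 and 11.89 under SB. There was no overlap in either genotype, and the averaged change was -0.95 (SE 0.14, adjusted p = 0.00232). Its relative Cd93 had the opposite sign on the probe set used, with a change of 0.36 that was not called (SE 0.12, adjusted p = 0.0599). A second Cd93 probe set of nearly the same mean level (13.31) was called, with a rise of 0.26 on average (adjusted p = 0.0441 in a fit of 23083 probe sets). Mmrn2, a matrix protein that binds both, changed by -0.33 on the probe set used (adjusted p = 0.0636), also not called. A dimmer Mmrn2 probe set, with a mean level of 8.17, was called in the fit of all probe sets (-0.64, adjusted p = 0.0156). Those with means of 7.95 (-0.58, 0.131) and 6.97 (-0.10, 0.652) were not.

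Podxl, a sialomucin of the luminal surface, was at 11.97, 11.42 and 11.14 in knockout VILI lungs, against 12.20, 12.02 and 12.55 in knockout SB lungs. In wild type it was at 11.85, 11.93 and 11.99 after VILI, against 12.20, 12.28 and 12.57 under SB, again without overlap, and it fell by 0.59 (SE 0.14, adjusted p = 0.0164). This call was lost when the gene was represented by its most variable probe set (adjusted p = 0.235) or by the mean of its probe sets (0.0725). Icam2, an adhesion molecule that endothelium carries without stimulation, had 11.87, 11.90 and 11.40 in knockout VILI lungs, against 12.38, 12.27 and 12.27 in knockout SB lungs. Wild type lungs had 12.04, 11.98 and 11.54 with VILI, against 11.99, 12.23 and 12.12 with SB, which overlapped. Icam2 fell by 0.42 (adjusted p = 0.0230), a call that was narrowly missed without wild type SB replicate 2 (0.0522) or replicate 3 (0.0515), or without knockout SB replicate 1 (0.0517).

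Pecam1, which joins neighbouring cells and is also found on platelets and leukocytes, read 12.25, 12.22 and 11.89 in knockout VILI lungs, against 12.43, 12.53 and 12.53 in knockout SB lungs. Its wild type values were 12.18, 12.27 and 12.04 after VILI, against 12.42, 12.43 and 12.37 under SB. The groups were separate in both genotypes but the shift was small, -0.31 (SE 0.07, adjusted p = 0.0145). Cdh5, the cadherin of the adherens junction, had 11.61, 11.30 and 11.24 in knockout VILI lungs, against 11.06, 11.60 and 12.09 in knockout SB lungs. In wild type lungs Cdh5 had 11.38, 11.45 and 11.58 after VILI, against 11.69, 12.05 and 11.56 under SB. Its groups overlapped in both genotypes and its change of -0.25 was not called (-0.59 to 0.09, adjusted p = 0.293).

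Cldn5, the tight junction claudin of endothelium, stood at 12.69, 12.90 and 12.67 in knockout VILI lungs, against 12.79, 13.59 and 12.73 in knockout SB lungs. Wild type lungs stood at 12.83, 12.92 and 12.89 after VILI, against 12.68, 13.34 and 12.89 under SB. In each genotype 1 SB array, replicate 2, was well above the rest, and the change of -0.19 had an interval of -0.52 to 0.14. Vwf, the clotting factor that tethers platelets, had 12.16, 12.11 and 11.91 in knockout VILI lungs, against 12.23, 12.12 and 12.05 in knockout SB lungs. Its wild type levels were 12.64, 12.50 and 12.42 after VILI, against 13.04, 12.71 and 12.66 under SB, lower without overlap, while the averaged change of -0.18 (-0.35 to -0.0029) was not called. For Vwf the gap between the genotypes was wider than that between treatments.

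Ptprb, the phosphatase that associates with VE-cadherin, read 13.34, 13.06 and 12.68 in knockout VILI lungs, against 13.34, 13.41 and 13.07 in knockout SB lungs. The wild type readings of Ptprb were 13.41, 13.22 and 13.24 after VILI, against 13.49, 13.43 and 13.25 under SB, so the groups overlapped in both genotypes. Ptprb changed by -0.18 (-0.41 to 0.06), the guidance receptor Robo4 by 0.08 (-0.17 to 0.33) and the junction immunoglobulin Esam by 0.18 (-0.04 to 0.40). Emcn, a sialoglycoprotein, had -0.05 with a wider interval (-0.52 to 0.42). Lyve1 read 13.70, 14.11 and 13.56 in knockout VILI lungs, against 13.57, 13.43 and 13.45 in knockout SB lungs, and 14.01, 14.08 and 13.66 in wild type VILI lungs, against 13.69, 13.45 and 13.36 in wild type SB lungs. It rose by 0.36 (SE 0.11, adjusted p = 0.0371) with groups that overlapped in both genotypes, and it stayed past the threshold in 10 of 21 alternative settings.

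**Figure D2:**
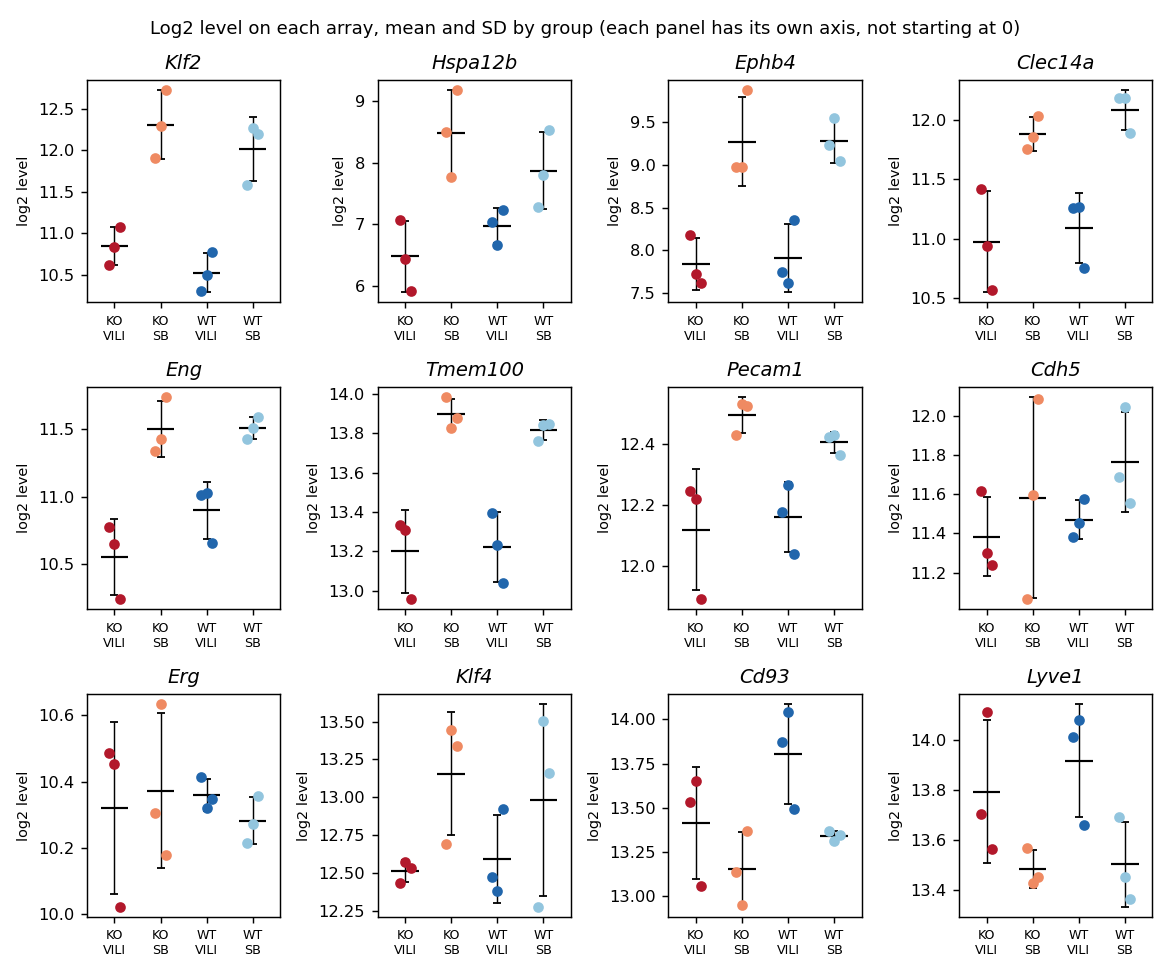
Log2 levels of 12 members on each of the 12 arrays, 3 per group, with the group mean (bar) and SD (whisker). The axes differ between panels and do not start at 0. Klf2, Hspa12b, Ephb4, Clec14a, Eng, Tmem100 and Pecam1 are lower after VILI in both genotypes without overlap, while Erg and Cdh5 overlap in all groups.

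Receptors and signalling genes held 4 that fell among the 10 measured, 1 bounded within 0.5 and 5 undetermined, and none rose. Hspa12b read 7.08, 6.45 and 5.92 in knockout VILI lungs, against 8.49, 7.76 and 9.17 in knockout SB lungs. Wild type Hspa12b was 7.03, 6.67 and 7.24 after VILI, against 7.28, 7.80 and 8.52 under SB. The groups were apart in both genotypes, though the highest VILI and lowest SB arrays of wild type nearly met, and the averaged change was -1.44 (SE 0.28, adjusted p = 0.00773). With the lowest levels of the list, Hspa12b also had the largest SE among the members that fell.

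Ephb4, the receptor of ephrin B2 that marks veins, gave 8.18, 7.73 and 7.62 in knockout VILI lungs, against 8.97, 8.97 and 9.88 in knockout SB lungs. For wild type it gave 7.75, 7.62 and 8.36 after VILI, against 9.23, 9.55 and 9.05 under SB. It fell by 1.40 (SE 0.20, adjusted p = 0.00157) without overlap in either genotype. Eng, the endothelial co-receptor of TGF-β and BMP ligands, had 10.78, 10.65 and 10.24 in knockout VILI lungs, against 11.34, 11.43 and 11.73 in knockout SB lungs. Among wild type lungs Eng had 11.01, 11.03 and 10.66 after VILI, against 11.42, 11.51 and 11.59 under SB. Eng fell by 0.77 (SE 0.11, adjusted p = 0.00172), and Egfl7, a secreted protein of endothelium, fell by 0.42 (SE 0.08, adjusted p = 0.00482). A dimmer Egfl7 probe set, with a mean level of 8.34, changed by -0.07 and was not called (adjusted p = 0.698 in a limma fit of 23083 probe sets). In the same fit those with means of 10.87 and 10.15 were called (-0.48, adjusted p = 0.00442, and -0.29, 0.0297).

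The G protein-coupled receptors were not called: the apelin receptor Aplnr changed by -0.49 (adjusted p = 0.116) and the sphingosine 1-phosphate receptor S1pr1 by -0.27 (adjusted p = 0.393). Wild type SB replicate 1 had the lowest Aplnr of its group, 10.88 against 12.07 and 12.22, and without that array the Aplnr change was -0.70 (adjusted p = 0.00460). Nostrin, which binds endothelial nitric oxide synthase, changed by 0.29 (-0.18 to 0.76), and Rasip1, a Ras-interacting protein of vessel lumens, by 0.16 (-0.22 to 0.55). Bmx, a cytoplasmic tyrosine kinase, changed by 0.07 (-0.36 to 0.50). Arhgef15, a guanine nucleotide exchange factor, stood at 8.29, 7.63 and 7.37 in knockout VILI lungs, against 7.91, 7.58 and 9.12 in knockout SB lungs. It stood at 7.65, 8.09 and 7.89 in wild type VILI lungs, against 7.73, 8.22 and 8.86 in wild type SB lungs, and replicate 3 was the highest array of both SB groups. Its change of -0.42 had the interval -1.03 to 0.20.

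Of the 4 capillary genes 1 fell, 1 was bounded within 0.5 and 2 were undetermined. Tmem100, a membrane protein induced by BMP signalling in endothelium, read 13.34, 13.31 and 12.96 in knockout VILI lungs, against 13.98, 13.83 and 13.88 in knockout SB lungs. The wild type readings were 13.40, 13.23 and 13.04 after VILI, against 13.76, 13.84 and 13.85 under SB. Both genotypes were separated by treatment, and the fall of 0.65 had the smallest SE of the called changes over 0.5 (SE 0.08, adjusted p = 0.000845). On a dimmer Tmem100 probe set, with a mean level of 10.39, the limma change was -0.73 in knockouts (adjusted p = 0.0441) and -0.27 in wild type (0.398). The wild type groups overlapped on that probe set.

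Plvap, which forms the diaphragms of fenestrae and caveolae, was at 12.48, 12.27 and 11.80 in knockout VILI lungs, against 12.64, 12.62 and 12.47 in knockout SB lungs. It was at 12.61, 12.69 and 12.58 in wild type VILI lungs, against 12.75, 12.84 and 12.74 in wild type SB lungs. Its averaged change was -0.27 (-0.49 to -0.06, adjusted p = 0.0776), and its knockout change -0.39 (-0.70 to -0.09, adjusted p = 0.131). Car4, a carbonic anhydrase of the capillary surface, changed by -0.34 (adjusted p = 0.0633), and Gpihbp1, which carries lipoprotein lipase to the lumen, by -0.22 (adjusted p = 0.417). All 4 capillary genes thus had negative averaged changes, with 1 of them called.

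**Figure D3:**
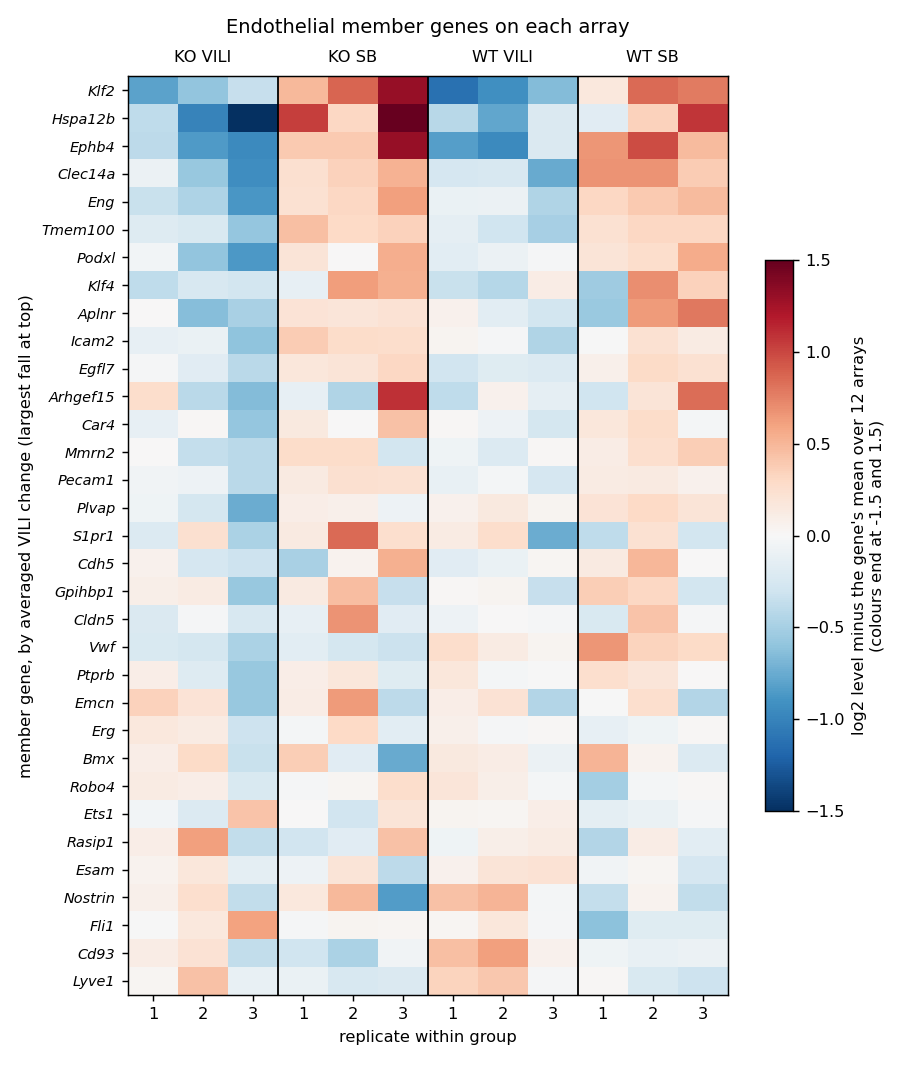
Log2 level of each measured member on each array, as the difference from that gene's mean over the 12 arrays, with genes from the largest averaged fall (top) to the largest rise. Blue is below the gene's mean and red above it. The upper genes are blue on both VILI groups and red on both SB groups, and knockout VILI replicate 3 is the lowest of the 12 arrays for 19 of the 33 members.

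Within the knockouts, 7 of 33 members fell after VILI and none rose: Klf2 (-1.47), Hspa12b (-1.99), Ephb4 (-1.43), Eng (-0.94), Clec14a (-0.90), Tmem100 (-0.70) and Egfl7 (-0.42). Their adjusted p ran between 0.0108 for Klf2 and 0.0497 for Egfl7. Over all genes 1.7% were called lower and 2.76% higher. Before adjustment 13 members had a p under 0.05, all lower, against 2436 of the 10996 genes in either direction. In 12 of 33 members every knockout VILI array lay below every knockout SB array, against 10.6% of all genes. The number of members called by limma was 11 without knockout VILI replicate 1 and 3 without replicate 2 or replicate 3 of that group. It was 4 without knockout SB replicate 1 or replicate 3. Shares of all genes called with these arrays left out are not given here. Fitted to the 6 knockout arrays alone, limma called 0 members and 11 genes in all, with 12 members at an unadjusted p under 0.05.

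Within wild type lungs 4 of 33 members fell and none rose: Klf2 (-1.49, adjusted p = 0.0132), Ephb4 (-1.37, 0.0326), Clec14a (-0.99, 0.0330) and Tmem100 (-0.59, 0.0259). Here 1.28% of all genes were called lower and 1.36% higher. Before adjustment 12 members had a p under 0.05, 9 lower and 3 higher, against 2327 of the 10996 genes in either direction. In 12 members the wild type VILI arrays lay wholly below the SB arrays, against 20% of all genes. For Esam, Cd93, Fli1 and Ets1 they lay wholly above, a pattern whose share over all genes was not taken. The members called in wild type were called in the knockouts too. The dimmer probe set of Tmem100 was not called in wild type (-0.27, adjusted p = 0.398). Eng (-0.60, 0.0659) and Egfl7 (-0.42, 0.0593) missed the threshold in wild type. Limma called 0 members without SB replicate 3 or without VILI replicate 2 (10 and 7 at an unadjusted p under 0.05), 1 without SB replicate 2 or VILI replicate 1, and 2 without VILI replicate 3. For these fits the shares of all genes are not given here.

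A negative change in both genotypes was seen in 21 members, against 41% of all genes tested, and a positive one in 7, against 33.8%. Both genotypes showed VILI arrays wholly below SB arrays for 9 members (Klf2, Hspa12b, Ephb4, Clec14a, Eng, Tmem100, Podxl, Egfl7 and Pecam1), against 6.19% of all genes. No member lay wholly above in both genotypes, against 6.01% of all genes. The median member change was -0.34 in knockouts and -0.24 in wild type, against 0.00 and -0.05 over all genes.

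**Figure D4:**
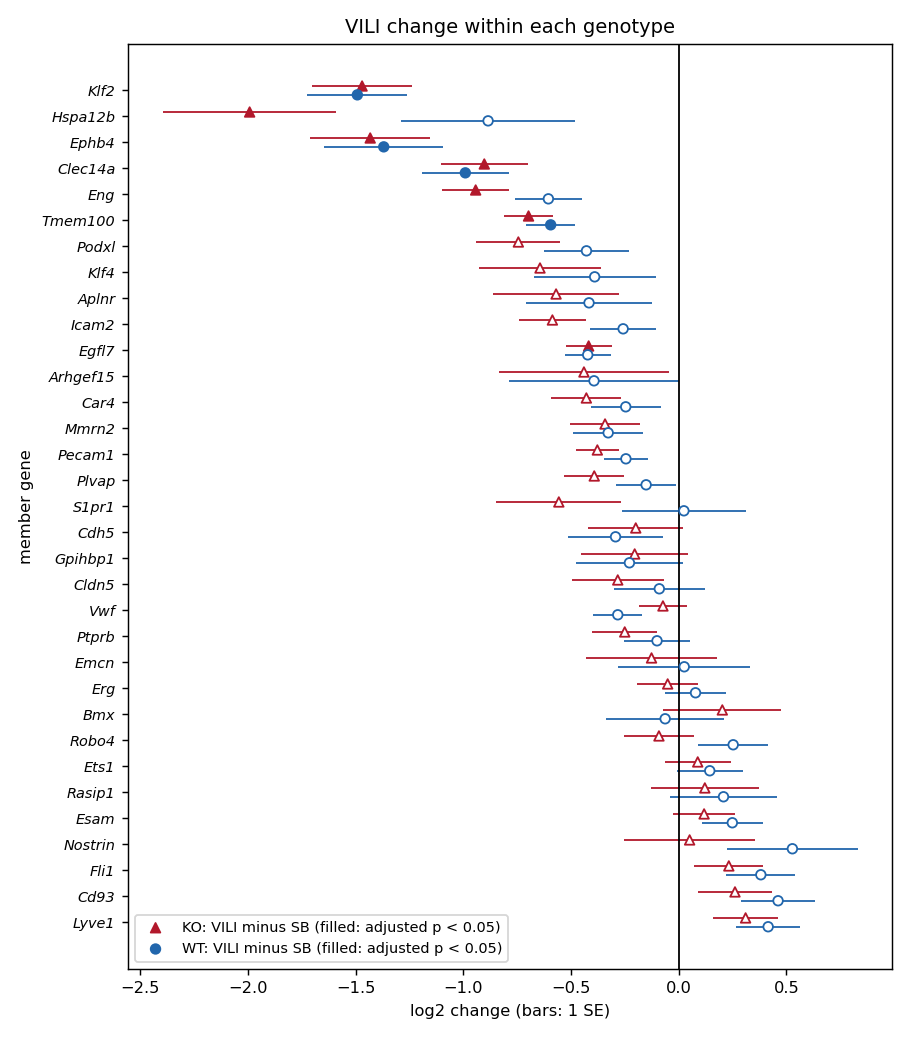
Log2 change after VILI of each measured member in knockout lungs (red triangles) and wild type lungs (blue circles) with 1 SE, where filled symbols mark an adjusted p under 0.05. Klf2, Ephb4, Clec14a and Tmem100 are filled in both genotypes, and Hspa12b shows the widest gap, -1.99 in knockout and -0.88 in wild type lungs.

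Controls of RNA integrity differed between the groups. On the actin control probe sets, the 3′ minus 5′ difference, which grows as RNA is shortened, was 0.54 to 0.77 on knockout VILI arrays, 0.63 to 0.79 on knockout SB arrays, 0.62 to 0.89 on wild type VILI arrays and 1.07 to 1.10 on wild type SB arrays. The Gapdh control gave -0.08 to 0.30, -0.12 to 0.35, -0.11 to 0.44 and 0.49 to 0.67 in the same order. The wild type SB arrays thus stood apart, and the part of this in the wild type changes was not tested. The knockout groups overlapped on both controls. Over the 10 members that fell on average, the knockout change minus the wild type change ran between -1.11 for Hspa12b and 0.09 for Clec14a.

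Knockout VILI replicate 3 was the lowest of the 12 arrays for 19 of 33 members, against 17.6% of all genes. Knockout SB replicate 3 was the highest for 9 members, a count whose share over all genes was not taken. That array was the lowest for 3 members, against 17% of all genes. The mean of 6 B cell markers was 10.62 and 10.11 on these 2 arrays and between 5.57 and 7.93 on the other 10. Without both arrays, 2 members were called in knockouts (Klf2 and Tmem100), 6 in wild type, and 12 lower with 2 higher in the average. Shares of all genes called without them are not given here. The knockout changes without them were -1.38 for Klf2 (adjusted p = 0.0434), -1.37 for Hspa12b (0.120), -1.02 for Ephb4 (0.0890), -0.67 for Eng (0.0517), -0.62 for Clec14a (0.147), -0.58 for Tmem100 (0.0472) and -0.27 for Egfl7 (0.189). All 7 stayed negative, with 2 arrays left in each knockout group.

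Between genotypes the only member whose call depended on the setting was Vwf. Under SB, limma called 0 of 33 members for knockout minus wild type (0.109% of all genes called in either direction), and 1 had an unadjusted p under 0.05. That member was Vwf, with 12.13 ± 0.09 in knockout SB lungs and 12.80 ± 0.20 in wild type SB lungs (SD, n = 3 each), a difference of -0.67 (SE 0.11, adjusted p = 0.0570). With the replicate number as a block Vwf was called (adjusted p = 0.00821), and it passed in 3 of 22 alternatives, whose adjusted p ran between 0.00821 and 0.274. In the same comparison, fibroblast and smooth muscle markers had a median of -0.49, with 8 of 12 at an unadjusted p under 0.05 but 0 called by limma (all genes: median -0.06, 1113 of 10996). T and NK cell markers had a median of 0.87 (4 of 6 at an unadjusted p under 0.05) and B cell markers 1.35 (0 of 6), also with 0 called by limma. The mean level of the fibroblast and smooth muscle markers was 10.61 to 11.00 on knockout SB arrays and 11.03 to 11.34 on wild type SB arrays. The wild type SB arrays also had the largest 3′ minus 5′ differences. The part of any of these in the Vwf difference was not tested. After VILI, limma again called 0 members (0.1% of all genes). Before adjustment 3 were below 0.05, all lower in knockout lungs, against 756 of the 10996 genes in either direction. Vwf averaged 12.06 ± 0.13 in knockout VILI lungs and 12.52 ± 0.11 in wild type VILI lungs (SD, n = 3 each), a difference of -0.46 (adjusted p = 0.296). Its knockout arrays lay below all wild type arrays under both treatments.

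The VILI response itself was not shown to differ between the genotypes. The interaction, the knockout response minus the wild type response, was called by limma for 0 members (0% of all genes), and 0 had an unadjusted p under 0.05, against 288 of the 10996 genes. The fall was larger in the knockouts for 15 of the 21 members that were negative in both, a count whose share over all genes was not taken. Knockout VILI replicate 3 was the lowest of the 12 arrays for 19 members, and its part in that count was not tested. Hspa12b had the largest interaction of any member, -1.11, with an SE of 0.57. Klf2 had 0.02 with a 95% interval of -0.70 to 0.74, and Ephb4 -0.06 with -0.92 to 0.80, so differences of over 0.5 in either direction remained possible for both.

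Of the members, 17 had more than 1 kept probe set, and 26 of the 27 probe sets not used had the sign of the used one in the averaged change. The exception, a dimmer probe set of Arhgef15 with a mean level of 6.81, changed by 0.68, against -0.42 for the probe set used. Both its changes had adjusted p above 0.05. A difference of over 0.5 from the used probe set, a criterion set after the values were seen, was met by 9 probe sets of 7 members.

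Cd93 and Ets1 had probe sets not used that rose in wild type and had smaller changes in knockouts. The second bright probe set of Cd93 changed by 0.03 in knockouts (adjusted p = 0.923) and 0.50 in wild type (adjusted p = 0.0466). A dimmer Cd93 probe set, with a mean level of 9.69, read 10.09, 9.98 and 9.69 in knockout VILI lungs, against 9.89, 9.46 and 9.52 in knockout SB lungs. In wild type it read 10.35, 10.55 and 10.12 after VILI, against 8.95, 8.51 and 9.22 under SB. The changes of this Cd93 probe set were 0.29 in knockouts (adjusted p = 0.440) and 1.45 in wild type (adjusted p = 0.00780), and it was the wild type SB arrays that stood lowest. The Cd93 probe set used read 13.53, 13.65 and 13.05 in knockout VILI lungs, against 13.13, 12.95 and 13.37 in knockout SB lungs, and 13.87, 14.04 and 13.49 in wild type VILI lungs, against 13.37, 13.31 and 13.34 in wild type SB lungs. For Ets1, a probe set with a mean level of 6.98 changed by 0.28 in knockouts and 0.86 in wild type lungs (adjusted p = 0.390 and 0.0352). Averaged over the genotypes that Ets1 probe set rose by 0.57 (adjusted p = 0.0129), and a dimmer one with a mean level of 5.15 rose by 0.58 (adjusted p = 0.0411). The wild type SB arrays are those with the largest 3′ minus 5′ differences, and the part of that in these probe sets was not tested.

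Cdh5, Podxl and Ptprb had dimmer probe sets with the reverse order. Cdh5 changed by -1.33 in knockouts and 0.02 in wild type on a probe set with a mean level of 7.52, Podxl by -1.44 and 0.04 on one at 7.46, and Ptprb by -0.90 and 0.25 on one at 9.58. On each of the 3, knockout VILI replicate 3 was the lowest array of the 12 (6.06, 5.43 and 8.52). No adjusted p of these changes was below 0.05, and the interaction was called for no probe set of any member in a fit of 23083 probe sets. Across the arrays the brighter probe sets of Cdh5, Podxl and Ptprb had smaller gaps between genotypes.

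**Figure D5:**
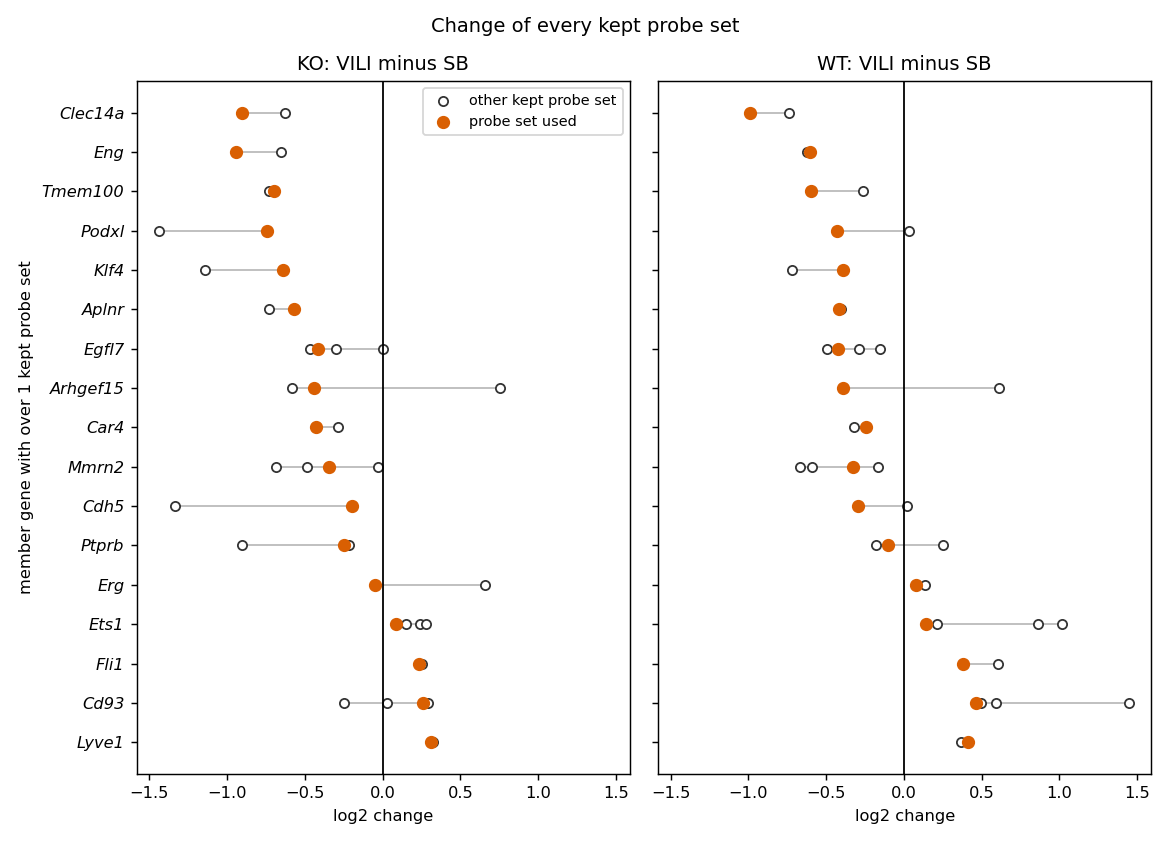
Log2 change after VILI of every kept probe set of the 17 members with more than 1, in knockout lungs (left) and wild type lungs (right). Filled orange points are the probe set used for the gene and open points the others. Clec14a, Eng and Tmem100 are negative on each probe set in both genotypes, while Podxl and Cdh5 have open points at -1.44 and -1.33 in knockouts and near 0 in wild type.

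Other endothelial genes were counted from lists chosen with earlier results of these data known. Among 24 other endothelial receptor and signalling genes 10 fell and 0 rose (median -0.27), with the smallest adjusted p for the vasoconstrictor peptide gene Edn1 (-1.30, adjusted p = 0.00215), the receptor Calcrl (-0.65, 0.00473) and the BMP receptor Bmpr2 (-0.37, 0.00479). Among 16 measured of 18 other endothelial transcription factors 6 fell and 0 rose (median -0.30), with Sox17 (-1.16, adjusted p = 5.09e-05), Gata2 (-0.80, 0.00493) and Epas1 (-0.24, 0.0161) first by adjusted p. Of 9 measured of 10 other genes of general capillary cells 4 fell, among them the receptor genes Kit (-0.96) and Tek (-0.67) and the Notch modifier Mfng (-0.64), and 1 rose, Rgcc (0.31). Of 9 measured of 11 other genes of aerocytes, the gas-exchange capillary cells, 2 fell: the VEGF receptor Kdr (-0.62) and Chst1 (-0.52). Kdr and Tek also belong to the receptor list. Adhesion and clotting genes that endothelium can induce had 0 falls and 2 rises among 7 measured of 12, F3, the tissue factor gene (1.37, adjusted p = 0.00251), and Selp, P-selectin (0.96, 0.0327). The same 9.39% lower and 8.42% higher of all genes apply to each of these counts.

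Among the leukocyte markers, those of neutrophils moved most with VILI. Neutrophil markers rose in 10 of 12 measured genes (15 listed, median 2.99). Their mean level ran 8.74 to 10.22 on knockout VILI arrays, 6.33 to 6.86 on knockout SB arrays, 8.54 to 9.31 on wild type VILI arrays and 5.89 to 6.35 on wild type SB arrays. Macrophage markers had 2 rises in 11 measured of 12 (Itgam and Ccr2) and a median of 0.02. Their means were 9.005 to 10.08, 9.18 to 9.43, 9.10 to 9.89 and 8.76 to 9.25 in the same order. T and NK cell markers (6 measured of 12, median 0.16) and B cell markers (6 of 10, median 0.37) had no call in either direction by limma and 0 genes at an unadjusted p under 0.05. Among the members, 10 are also known in leukocytes or platelets; 3 of these fell (Klf2, Icam2 and Pecam1), 1 rose (Lyve1), and their median was -0.22. The part of the rise of neutrophil markers, and of that of Itgam and Ccr2, in the members' changes was not tested.

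Epithelial and stromal markers also held genes that fell. Type I epithelial markers fell in 3 of 10 (median -0.19), type II markers in 2 of 9 measured (10 listed, median -0.16), and fibroblast and smooth muscle markers in 2 of 12 (median -0.11), with none rising. In the same comparison 10 of 33 members and 9.39% of all genes were called lower. Heart muscle markers had no call in 10 (median 0.03), and neither did the 3 measured of 6 platelet markers (median 0.12), with 0 at an unadjusted p under 0.05 in both lists by limma. Klf2, Hspa12b, Ephb4 and Clec14a had the largest falls among the members. These were larger than the lowest change among fibroblast and smooth muscle markers (-0.41) and among type II markers (-0.40). Rtkn2 among type I markers fell by 1.10, more than Clec14a.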

How the data were processed

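The deposited values were log2 expression levels of 45101 probe sets on 12 arrays, normalized by the authors. MAS5 and GCRMA are named in the submitters' processing notes without role or version. No further scaling was applied. After removal of 64 control probe sets, those above the array's own median on 3 or more of the 12 arrays were kept (23082), and the brightest on average stood for its gene (10996 genes). Symbols came from the platform annotation: 34945 probe sets had 1, 932 several and 9160 none, and 34741 matched RefSeq genes by identifier. Kept probe sets without exactly 1 symbol (3424) were not tested.

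Group means over all 12 arrays were fitted with limma 3.58.1 in R 4.3.3, with a mean-variance trend (8 residual and 3.36 prior degrees of freedom), two-sided, after a check on simulated data with 200 changed genes. The 6 contrasts were VILI against SB in knockout, in wild type and averaged, knockout against wild type in each treatment, and the interaction. A member not called was bounded when its 95% interval lay within 0.5. The number of arrays limits the precision. The series design gives 3 mice per group, and p-values measure the spread among them. Deviations of same-numbered knockout SB and wild type SB arrays from their group means correlated at 0.23, 0.53 and 0.32, over 0.1 in every pair, so that comparison is also given with the replicate block. The other pairs of groups did not meet this.

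The genes named are all 34 members, with values by array for the 8 largest called changes, 7 landmark genes and members whose probe sets disagreed, and from other lists up to 3 by adjusted p. The members, lists and rules were chosen with earlier results of these data known. Alternatives were 2 scalings, 2 filters, 2 rules for probe sets, no trend, a replicate block, only the arrays compared, each array left out, and both knockout replicate 3 arrays left out. Promoters came from RefSeq (GRCm38.p6), and figures were drawn with Python 3.11.15, pandas 2.3.3 and matplotlib 3.10.9.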

Additional observations from a re-analysis of the deposited data

How the results depend on the processing

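Of the 10 members that fell on average, 8 stayed past the threshold in all 21 alternatives, with Icam2 (18 of 21, highest adjusted p = 0.0522) and Podxl (19 of 21) the exceptions; Lyve1 stayed in 10. Of the 22 members not called, 9 passed in at least 1 alternative and 13 in none. Leaving out each array gave 9 to 14 averaged calls and a median member change of -0.30 to -0.18, 3 to 11 calls in knockouts (3 without knockout VILI replicate 2 or replicate 3, 11 without replicate 1), and 0 to 6 in wild type (0 without SB replicate 3 or VILI replicate 2, 6 without knockout VILI replicate 3). Without a filter on low values 4 members were called in knockouts and 1 in wild type. Fitted to the knockout arrays alone, 0 knockout members were called by limma (12 at an unadjusted p under 0.05), and without both knockout replicate 3 arrays 2 were. The cause of these shifts was not tested. These counts and those below are of members, and shares of all genes called in the same settings are not given here. Knockout against wild type under SB gave 1 call, Vwf, with quantile normalization, with the replicate block and without knockout VILI replicate 3, for a range of 0 to 1 over arrays left out. Signs turned for 5 members: Arhgef15 (-0.42) by its most variable probe set (0.68), and 4 near 0, namely Erg with centred arrays (-0.025) and quantile normalization (-0.0038), and, over single arrays left out, Erg (-0.035 to 0.088), Robo4 (-0.0044 to 0.14), Emcn (-0.18 to 0.091) and Bmx (-0.073 to 0.21). Replicate numbers recur across the groups, but same-numbered arrays correlated between -0.16 and 0.53 over 18 pairs, so they were not taken as pairs except between the SB groups, although 9 of 12 arrays correlated best with their own number; the replicate block gave 14 averaged calls, 8 in knockouts and 4 in wild type.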

Other observations

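Lymphatic endothelial markers had 1 call among 5 measured of 7, the rise of Lyve1, and a median change of 0.02. Their mean level was 10.05 to 10.14 on knockout VILI arrays, 9.79 to 9.99 on knockout SB arrays, 9.92 to 10.06 on wild type VILI arrays and 9.82 to 10.35 on wild type SB arrays. Apart from Lyve1, the lymphatic genes with the smallest adjusted p were Flt4, the VEGF-C receptor (-0.23, adjusted p = 0.359), and Mmrn1 (-0.09, 0.634), neither of which was called.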
